A study of Mus musculus with 6 samples.

Results

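The vacuolar proton pump (V-ATPase) and the lysosome were followed in RNA from cultured mouse dorsal root ganglion (DRG) neurons after 24 h with or without HC-HA/PTX3, a hyaluronan matrix complex purified from human amniotic membrane. The genes were chosen by name. All symbols that begin with Atp6v0 or Atp6v1, both V-ATPase accessory genes (Atp6ap1 and Atp6ap2) and 29 listed lysosomal genes were taken, which gave 54 of the 35976 genes counted, 25 of the V-ATPase and 29 lysosomal. The lysosomal genes comprise proteases, glycosidases and lipid hydrolases, other proteins of the lumen, membrane proteins, ion channels and the TFEB family of transcription factors. The study asked whether long exposure to HC-HA/PTX3 changes gene expression in DRG neurons. Lumbar ganglia of adult wild-type C57BL/6 mice of both sexes, 2 to 3 months of age, were dissociated, and the cells were plated in serum-containing medium with nerve growth factor and GDNF. Treatment began 24 h after plating and lasted 24 h, with vehicle in 3 cultures and 15 µg/mL HC-HA/PTX3 in 3. Total RNA depleted of ribosomal RNA was then sequenced. The labels number the cultures 1 to 3 in each group without saying which animals they came from. The p-values of the main test measure how the difference between same-numbered cultures varied from pair to pair. They do not measure the whole spread between cultures, and whether they cover a spread between animals is not known.

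The V-ATPase is a rotary pump that acidifies lysosomes, endosomes and synaptic vesicles. Its cytosolic V1 domain hydrolyses ATP and turns a ring of proton-carrying subunits in the membrane-embedded V0 domain. The acid lumen activates the hydrolases that digest proteins, glycans and lipids, and the transcription factors TFEB, TFE3 and MITF, which the kinase mTORC1 phosphorylates at the lysosome surface and so holds in the cytosol, switch on many of these genes together. Sensory neurons carry lysosomes along long axons and load transmitter and neuropeptide vesicles with the same pump, and inherited defects of several lysosomal enzymes, such as alpha-galactosidase A in Fabry disease, cause neuropathic pain or neurodegeneration.

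After HC-HA/PTX3, 11 V-ATPase and lysosome genes were modestly higher and none was lower at a Benjamini-Hochberg adjusted p under 0.05 in edgeR's quasi-likelihood test. They were the pump subunit genes Atp6v1a, Atp6v1f, Atp6v1h and Atp6v0a1, the accessory gene Atp6ap2, the protease gene Ctsd, the glycosidase genes Gla and Neu1, the genes of the luminal proteins prosaposin (Psap) and progranulin (Grn), and the cholesterol transporter gene Npc1. Their rises were between 1.16-fold and 1.27-fold. In this text a gene rose or fell where its adjusted p over all 18277 genes tested was under 0.05, and a log2 fold change is that of HC-HA/PTX3 over vehicle, given with its standard error. The test took the replicate number as a block, that is, it compared the same-numbered cultures of both groups. Enough counts for a test were found for 49 of the 54, namely 20 of the V-ATPase and 29 lysosomal. The 11 that rose compare with 7.67% of all tested genes that rose, and the 0 that fell with 11.5% that fell. At an unadjusted p under 0.05, 25 of the 49 differed, 2 of them lower, beside 33.2% of all tested genes. The edgeR counts given below for each role and list compare with these same shares of all tested genes. No fall passed with DESeq2 or limma-voom, whereas ComBat-seq followed by limma gave 3. With the latter 33 of the 49 passed in either direction, beside 41% of all genes it tested. With upper-quartile scaling 16 were higher, beside 8.85% of all genes, and the 5 added were Atp6v1b2, Atp6v1e1, Atp6v1g1, Gaa and Mcoln1. Levels are given in CPM, counts scaled to library size with edgeR's TMM factors, of which 1 stood for 37.1 to 56.0 counts in these libraries. Among all tested genes with a mean level of at least 20 CPM, 9.43% rose and 14.5% fell, and all 11 genes that rose were among the 43 of the 49 at this level.

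None of the 49 reached the study's criterion for a differentially expressed gene, which adds an absolute log2 fold change over 0.5, against 8.7% of all tested genes and 4.38% of those at 20 CPM or more. The count was also 0 with DESeq2, limma-voom and ComBat-seq followed by limma. The median log2 fold change was 0.17 for the 20 V-ATPase genes and 0.16 for the 29 lysosomal genes, beside -0.01 for all tested genes, and both medians stayed above 0 under every scaling tried. Expression was higher in the treated culture of all 3 pairs for 32 of the 49 genes, beside 25.2% of all tested genes, and lower in all 3 pairs for 4, beside 28.7%. The whole treated group lay above the whole vehicle group for 6 genes (Atp6v1h, Atp6ap2, Ctsd, Neu1, Psap and Ostm1), a share close to the 9.44% of all tested genes.

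**Figure D1:**
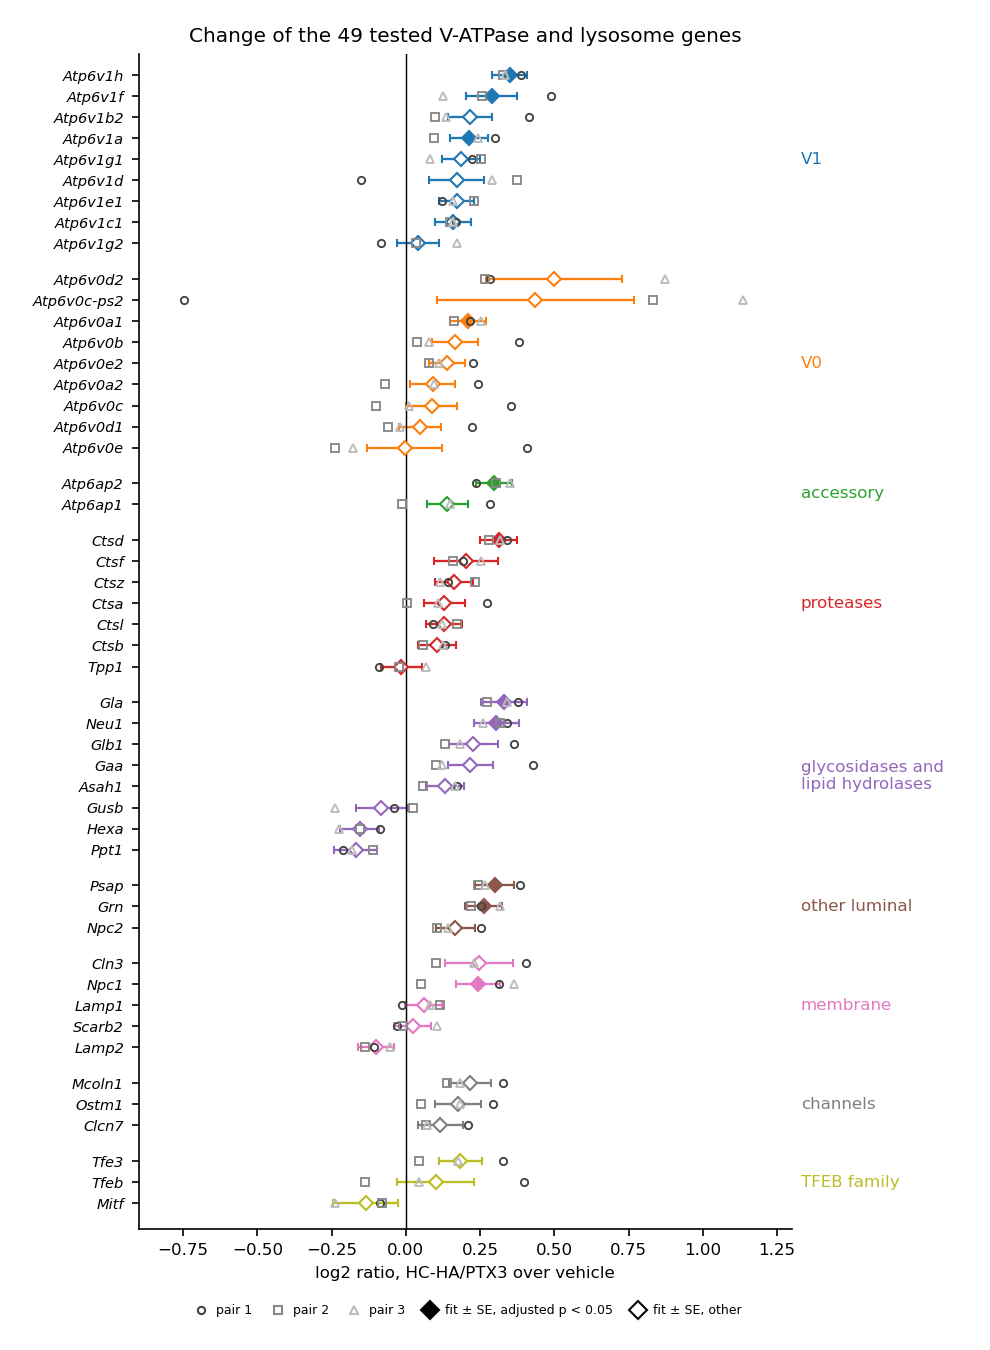
The log2 ratio of HC-HA/PTX3 over vehicle is plotted for each of the 49 tested genes by role, with small open symbols for the 3 same-numbered pairs and diamonds with bars for the fitted value ± SE. Diamonds are filled for the 11 genes with an adjusted p under 0.05, and these all lie between 0.21 and 0.35.

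**Figure D2:**
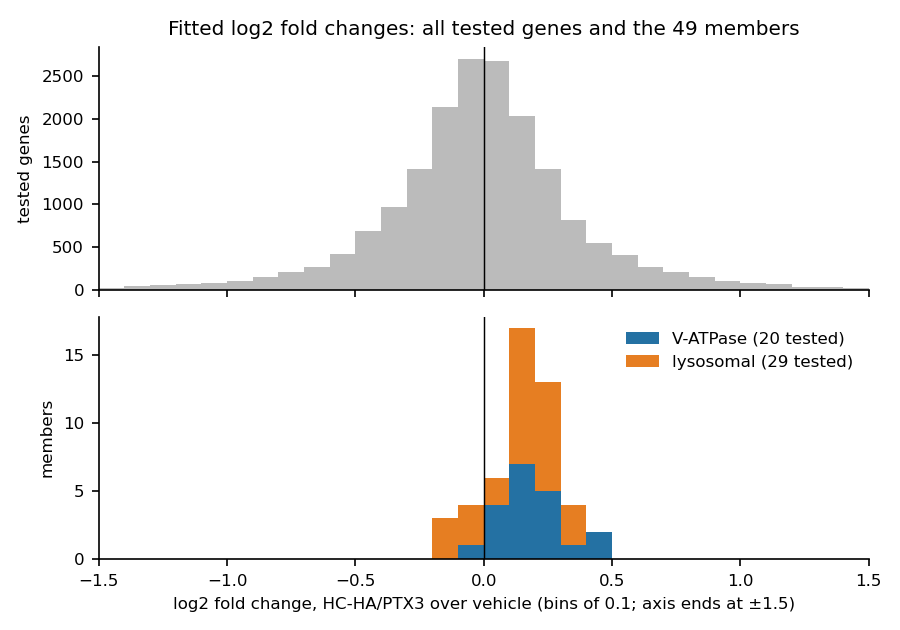
Fitted log2 fold changes are binned for all 18277 tested genes (upper panel) and for the 20 V-ATPase and 29 lysosomal genes (lower panel, stacked), with the number of genes on each vertical axis. The bulk of the members sits to the right of 0, with an interquartile range of 0.09 to 0.23, whereas that of all tested genes runs from -0.20 to 0.18.

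The block decided whether any of these rises passed. Without it, no gene of the whole table passed (0% of the tested genes, smallest adjusted p 0.0581), and 4 of the 49 had an unadjusted p under 0.05, beside 11.4% of all tested genes. The median log2 fold changes without the block were 0.16 for the V-ATPase and 0.17 for the lysosomal genes. The count of 11 also depended on each pair. Without replicate 1, 6 genes passed, among them Atp6v1h, Atp6ap2, Ctsd and Psap of the 11, while 3.05% of all tested genes were higher. Without replicate 2, only Atp6v1h and Npc1 passed, a share near the 4.48% of all genes that were higher. Without replicate 3, 6 passed, namely Atp6v1f, Atp6v1h, Atp6ap2, Ctsd, Neu1 and Psap, while 4.9% of all genes were higher. All 11 had a positive log2 fold change in each of these fits. Atp6v1h passed in 12 of 13 alternative analyses, all but the one without the block.

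The letters TCACGTGA, the core of the CLEAR element to which TFEB and its relatives bind, were looked up in the promoters of these genes (RefSeq, GRCm38.p6, 250 bases before to 50 after the transcription start of each entry). The motif reads the same on both strands and contains the E-box CACGTG. An entry was found for 44 of the 54 genes, and 9 of the 44 (20.5%) held TCACGTGA, beside 304 of the 27025 genes with an entry (1.12%). Among the pathway genes described further on, 0 of 22 other lysosomal hydrolases, 0 of 15 other lysosomal membrane genes and 0 of 17 genes of mTORC1 control with an entry held it, beside 1 of 8 V-ATPase assembly genes, 2 of 7 sorting genes and 1 of 11 autophagy genes. The 9 were Atp6v1a, Atp6v0d1, Atp6v0e, Ctsa, Ctsd, Gla, Cln3, Mcoln1 and Clcn7. The shorter CACGTG was found in 15 of the 44 (34.1%) and in 8.09% of all. Of the genes that rose, Atp6v1a, Ctsd and Gla carried the longer motif, and their sites are shown together with those of Mcoln1 and Cln3. In these 5 genes, unlike the other 4, the 28 bases around the motif lie wholly before the transcription start of the entry. Each line gives these bases on the strand of the gene, 5′ to 3′, with the motif in capitals.
Atp6v1a: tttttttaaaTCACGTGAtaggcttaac
Ctsd: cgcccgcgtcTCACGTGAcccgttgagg
Gla, distal: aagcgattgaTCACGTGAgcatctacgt
Gla, proximal: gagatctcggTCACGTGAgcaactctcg
Mcoln1: ggcgccccgcTCACGTGAccgcggcgca
Cln3: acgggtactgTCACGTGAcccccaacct
The motif in the Atp6v1a site (chr16:44139374-44139401, minus strand) begins 132 bases before the transcription start of its entry, which is at 44139259. That of Ctsd (chr7:142387909-142387936, minus strand) begins 99 bases before that of its entry. Gla has its 2 sites at chrX:134601216-134601243 and chrX:134601183-134601210 (minus strand), which begin 228 and 195 bases upstream. The Mcoln1 site (chr8:3500463-3500490, plus strand) begins 46 bases and the Cln3 site (chr7:126583341-126583368, minus strand) 122 bases upstream, the latter of a start at 126583236. The gene spans given by RefSeq begin further upstream for Atp6v1a and Cln3, so that their motifs lie 312 and 2460 bases inside the span. The log2 fold changes of the 9 genes with the motif had a median of 0.21, and 3 of them rose. Among the 30 tested genes whose promoter entry lacked these letters, 6 rose, with a median of 0.16. These matches describe letters in a window and no binding was measured. The motif was looked up because TFEB and its relatives are known to act on many lysosomal genes. Motif and gene list were thus not chosen independently, and the larger share among the members is a description, not a test.

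In the V1 domain, 3 of the 9 tested genes rose, none fell, and the median log2 fold change was 0.19. Atp6v1h (chr1:5082978-5163213) encodes the regulatory subunit H, which couples V1 to V0 and silences free V1. Its level was 112, 109.9 and 137 CPM in vehicle replicates 1, 2 and 3 and 146, 138 and 172 CPM in HC-HA/PTX3 replicates 1, 2 and 3. Every treated culture lay above every vehicle culture, and the log2 fold change was 0.35 ± 0.06 (adjusted p = 0.00361), the largest rise of the V1 genes. Atp6v1f (chr6:29467783-29470509), the gene of subunit F of the central rotor, was counted at 31.7, 30.3 and 37.5 CPM with vehicle and 44.5, 36.1 and 40.9 CPM with HC-HA/PTX3. Its groups overlapped, and the difference was largest in pair 1, at 0.49, 0.25 and 0.13 on the log2 scale for pairs 1, 2 and 3 (fitted 0.29 ± 0.09, adjusted p = 0.0416, or 0.19 and adjusted p = 0.253 without replicate 1). Atp6v1a (chr16:44085402-44139702) encodes the catalytic subunit A. It was measured at 241, 225 and 225 CPM with vehicle and 297, 239.6 and 267 CPM with HC-HA/PTX3, and only replicate 2 of the treated cultures lay within the vehicle range (0.21 ± 0.06, adjusted p = 0.0446).

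The other 6 tested V1 genes all had fitted values above 0, between 0.04 and 0.22, that did not pass. Atp6v1b2, the gene of the B subunit found in brain, was the highest of them (0.22 ± 0.07, adjusted p = 0.0668, or 0.12 and adjusted p = 0.266 without replicate 1). Atp6v1g1, Atp6v1e1 and Atp6v1c1, the widely expressed forms of subunits G, E and C, had values of 0.19, 0.17 and 0.16, with adjusted p from 0.0690 to 0.0899. All 4 were higher in the treated culture of each pair and passed with ComBat-seq followed by limma, and all but Atp6v1c1 passed with upper-quartile scaling. Atp6v1d, of the central rotor, was lower in pair 1 and higher in pairs 2 and 3 (-0.15, 0.37 and 0.29), with a fitted 0.17 ± 0.09, adjusted p = 0.229, and passed when pair 1 was left out (0.33, adjusted p = 0.0221). Atp6v1g2, whose G2 subunit is a neuronal form, had the smallest value, 0.04 ± 0.07, adjusted p = 0.723, which was negative under scaling to neuron markers and without replicate 3.

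Levels within the pump were compared per kilobase of exon. Among V1 genes in the vehicle cultures, Atp6v1g1 stood highest at 82.2 ± 11.5 CPM per kb (SD, n = 3), followed by Atp6v1b2 at 49.6 ± 8.79 and Atp6v1a at 38.1 ± 1.56 CPM per kb. The next 4, Atp6v1f, Atp6v1g2, Atp6v1e1 and Atp6v1d, lay between 31.2 and 25.6 CPM per kb, and each overlapped its neighbour in the order. Atp6v1c1 at 17.3 ± 0.988 and Atp6v1h at 12.3 ± 1.55 CPM per kb were the lowest of the tested V1 genes. The V1 genes known for restricted tissues were close to absent. Atp6v1b1, the B subunit gene of kidney and inner ear, had no count in any of the 6 cultures, which at 3 counts allows up to 0.0808 CPM in the smallest library by effective size, for counting error only. Atp6v1c2 reached at most 0.934% of the per-kb level of the C subunit genes in any culture, the testis gene Atp6v1e2 at most 0.270% of the E subunit genes, and Atp6v1g3 at most 0.0359% of the G subunit genes. These 4 genes had too few counts for a test. Of the G subunit genes, Atp6v1g1 made up 72.7% ± 6.03 in the vehicle cultures and 74.7% ± 4.96 in the HC-HA/PTX3 cultures (SD, n = 3).

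**Figure D3:**
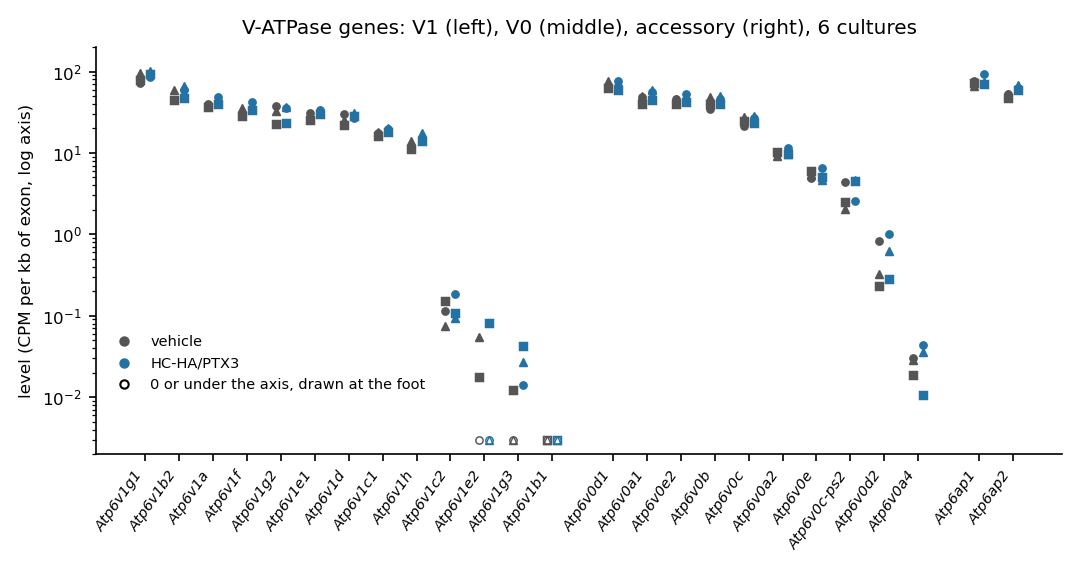
Levels of the 25 V-ATPase genes are drawn on a log axis in CPM per kb of exon, with 1 symbol for each of the 6 cultures (grey for vehicle, blue for HC-HA/PTX3, shapes for the replicate number) and open symbols at the foot for values of 0. The paralogs Atp6v1c2, Atp6v1e2, Atp6v1g3, Atp6v1b1, Atp6v0d2 and Atp6v0a4 lie well below the others.

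In the V0 domain, 1 of the 9 tested genes rose and none fell, beside 7.67% and 11.5% of all tested genes. At an unadjusted p under 0.05 in edgeR, 2 of the 9 differed, beside 33.2%. The median log2 fold change was 0.14, which was 0.06, 0.18 and 0.14 without replicates 1, 2 and 3. Atp6v0a1 (chr11:101009422-101063719) encodes the a1 subunit, the form of synaptic vesicles and of neuronal lysosomes. It was measured at 316, 261 and 328 CPM in vehicle replicates 1, 2 and 3 and 367, 292 and 391 CPM in HC-HA/PTX3 replicates 1, 2 and 3. Replicate 2 was low in both groups, which overlapped, and the treated culture was the higher of each pair. The log2 fold change was 0.21 ± 0.06 (adjusted p = 0.0359). The largest fitted value belonged to Atp6v0d2, a d subunit gene of osteoclasts and kidney (0.50 ± 0.23, adjusted p = 0.157), at only 2.27, 0.628 and 0.893 CPM with vehicle and 2.78, 0.765 and 1.68 CPM with HC-HA/PTX3. Without replicate 3 this value was 0.30, and it passed only with ComBat-seq followed by limma (0.46, adjusted p = 0.0295), as did Atp6v0e2. The smallest was that of Atp6v0e (-0.00 ± 0.13, adjusted p = 0.986), which was above 0 with raw library sizes and upper-quartile scaling. Atp6v0d1 (0.05 ± 0.07, adjusted p = 0.679), which encodes the common d subunit, and Atp6v0a2 (0.09 ± 0.08, adjusted p = 0.439), a form of the Golgi and endosomes, had values that were negative under scaling to neuron markers, and the former also without replicate 1. The value of Atp6v0a2 was 0.015, 0.17 and 0.10 without replicates 1, 2 and 3.

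Atp6v0d1 was the most abundant V0 gene at 67.8 ± 7.46 CPM per kb in the vehicle cultures (SD, n = 3). Atp6v0a1, Atp6v0e2 and Atp6v0b followed at 46.0, 44.0 and 40.7 CPM per kb, with overlapping ranges. Among the 4 paralogs of the a subunit, which direct the pump to its membrane, Atp6v0a1 held the largest share of the per-kb level, 75.3% ± 5.06 in the vehicle cultures and 77.5% ± 3.95 in the HC-HA/PTX3 cultures (SD, n = 3). Atp6v0a2 made up 15.9% and 15.0%, and Tcirg1, the a3 gene of osteoclasts and immune cells, 8.76% and 7.42%. The a4 gene of kidney, Atp6v0a4, reached at most 0.0592% in any culture and was not tested. The a1 share was higher in the treated culture of all 3 pairs, by less than the spread between cultures of a group. For the d subunit Atp6v0d1 made up at least 98.7% in every culture, and for the e subunit Atp6v0e2 made up at least 86.8%. Atp6v0c, the proteolipid of the ring (0.09 ± 0.09, adjusted p = 0.522), has a pseudogene among the 54 genes, Atp6v0c-ps2, counted at 1.91% of the Atp6v0c level in CPM, without regard to exon length. Per kb of exon, the pseudogene stood at 2.96 and Atp6v0c at 24.6 CPM per kb in the vehicle cultures. How reads that match both genes were assigned is not stated, so the values of both are uncertain. The log2 fold change of the pseudogene was 0.44 ± 0.33, adjusted p = 0.393, with pair values of -0.75, 0.83 and 1.13. Without replicate 1, where pair 1 is absent, it was 1.02 (adjusted p = 0.0496), past both thresholds of the study's criterion.

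Of the accessory genes, Atp6ap2 (chrX:12587759-12617051), also called the (pro)renin receptor and needed for assembly of V0, was measured at 139, 125 and 139 CPM in vehicle replicates 1, 2 and 3 and 164, 154 and 177 CPM in HC-HA/PTX3 replicates 1, 2 and 3. Every treated culture lay above every vehicle culture (0.30 ± 0.06, adjusted p = 0.00829). Atp6ap1, which guides the assembly of V0 and was the more abundant per kb at 71.4 ± 4.62 CPM per kb, did not pass (0.14 ± 0.07, adjusted p = 0.193). Among 12 other genes of the pump, namely the a3 subunit and assembly or regulatory factors, 1 rose and none fell (3 had an unadjusted p under 0.05, 1 of them lower), and the median log2 fold change was 0.05, or -0.05 under scaling to neuron markers and 0.01 without replicate 3. The gene that rose was Tldc2, of the TLDc family whose members interact with V1, at 2.37, 2.40 and 2.43 CPM with vehicle and 4.88, 3.11 and 5.97 CPM with HC-HA/PTX3. All treated cultures exceeded all vehicle cultures (0.92 ± 0.19, adjusted p = 0.00960), and the gene did not pass without replicate 1.

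**Figure D4:**
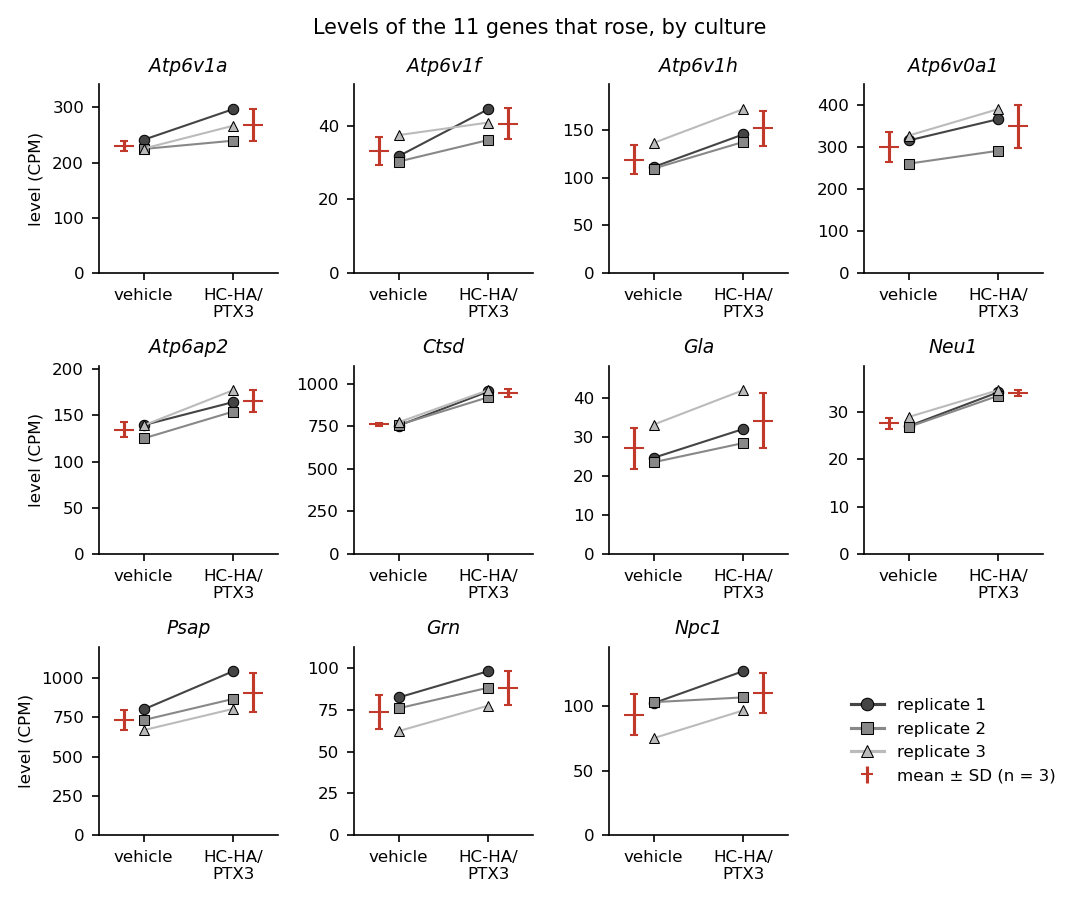
TMM-scaled levels in CPM are shown for the 11 genes that rose, with lines joining the same-numbered cultures and red bars for the mean ± SD of each group (n = 3). All lines climb from vehicle to HC-HA/PTX3, and in Atp6v1h, Atp6ap2, Ctsd, Neu1 and Psap the groups do not overlap.

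Among the 7 lysosomal proteases, 1 rose and none fell, beside 7.67% and 11.5% of all tested genes. At an unadjusted p under 0.05 in edgeR, 2 of the 7 differed, beside 33.2%. The median log2 fold change of the proteases was 0.13. Ctsd (chr7:142375910-142387827) encodes cathepsin D, the main aspartic protease of the lysosome. Its level was 755, 759 and 774 CPM in vehicle replicates 1, 2 and 3 and 955, 922 and 963 CPM in HC-HA/PTX3 replicates 1, 2 and 3. The spread within each group was small, every treated culture lay above every vehicle culture, and the log2 fold change was 0.31 ± 0.06 (adjusted p = 0.00758). At 324 ± 4.26 CPM per kb in the vehicle cultures (SD, n = 3), Ctsd was also the most abundant of the 29 lysosomal genes, ahead of Psap, Ctsb, Lamp1 and Ctsl at 267, 194, 154 and 95.9 CPM per kb, and none of these neighbours overlapped in the vehicle cultures. The levels of Ctsb and Lamp1 may include reads of Fdft1 and Grtp1 on the opposite strand, which share 12.8% and 9.31% of their exon bases. Tpp1, a tripeptidyl peptidase lost in a childhood neuronal storage disease, had the lowest value of the group (-0.01 ± 0.07, adjusted p = 0.906), which was above 0 with upper-quartile scaling, with raw library sizes and without replicate 1. The cysteine cathepsin genes and Ctsa lay between 0.10 and 0.20 and did not pass in edgeR, although 6 of the 7 proteases were higher in all 3 pairs. With ComBat-seq followed by limma, Ctsb, Ctsf, Ctsl and Ctsz passed besides Ctsd.

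Of 8 glycosidases and lipid hydrolases, 2 rose and none fell, with a median log2 fold change of 0.17, while 6 had an unadjusted p under 0.05, 2 of them lower, and 5 rose with ComBat-seq followed by limma. The median was 0.11, 0.22 and 0.20 without replicates 1, 2 and 3. Gla (chrX:134588169-134601005), the gene of alpha-galactosidase A, was measured at 24.6, 23.5 and 33.1 CPM in vehicle replicates 1, 2 and 3 and 32.0, 28.4 and 42.0 CPM in HC-HA/PTX3 replicates 1, 2 and 3. Replicate 3 was high in both groups, the groups overlapped, and the treated culture was the higher of each pair by a like ratio (0.33 ± 0.08, adjusted p = 0.0151). Neu1 (chr17:34931253-34937297) encodes the lysosomal sialidase. It stood at 27.0, 26.8 and 28.9 CPM with vehicle and 34.2, 33.4 and 34.6 CPM with HC-HA/PTX3, without overlap between the groups (0.31 ± 0.08, adjusted p = 0.0208). At the other end, Hexa, the alpha chain of beta-hexosaminidase, and Ppt1, a palmitoyl-protein thioesterase, were lower in the treated culture of all 3 pairs. Hexa was counted at 81.9, 74.1 and 60.0 CPM with vehicle and 77.0, 66.7 and 51.3 CPM with HC-HA/PTX3 (-0.16 ± 0.07, adjusted p = 0.127), and Ppt1 had the largest fitted decrease of the 49 genes (-0.17 ± 0.07, adjusted p = 0.134). Neither passed in edgeR, DESeq2 or limma-voom, both passed with ComBat-seq followed by limma, and the groups overlapped. Hexa shares 12.8% of its exon bases with Tmem202 on the opposite strand, and the strand setting of the counting is not given in the sources used here.

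The 3 other luminal genes were all higher in every pair, and 2 of them rose. Psap (chr10:60277628-60302600) encodes prosaposin, the precursor of the saposins that present lipids to hydrolases. Its level was 800.1, 732 and 668 CPM in vehicle replicates 1, 2 and 3 and 1045, 868 and 804 CPM in HC-HA/PTX3 replicates 1, 2 and 3, so that the lowest treated culture was just above the highest vehicle culture (0.30 ± 0.06, adjusted p = 0.0108). Grn (chr11:102430507-102436809) encodes progranulin, which is cleaved to granulins in the lysosome and travels there with prosaposin. It was counted at 82.4, 75.9 and 62.3 CPM with vehicle and 98.2, 88.3 and 77.5 CPM with HC-HA/PTX3. Both groups spread over a similar range and overlapped, while the log2 ratios of the pairs were 0.25, 0.22 and 0.32 (fitted 0.26 ± 0.06, adjusted p = 0.0165). Npc2, which hands cholesterol to NPC1, did not pass in edgeR (0.17 ± 0.07, adjusted p = 0.111) and passed with ComBat-seq followed by limma (adjusted p = 0.0109).

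Among the 5 membrane genes, 1 rose and none fell, beside 7.67% and 11.5% of all tested genes. At an unadjusted p under 0.05 in edgeR, 1 of the 5 differed, beside 33.2%. The median log2 fold change was 0.06, or -0.04 under scaling to neuron markers and 0.10, 0.03 and 0.07 without replicates 1, 2 and 3. Npc1 (chr18:12189694-12236506), the gene of the transporter that exports cholesterol from the lysosome, was measured at 102, 103 and 75.3 CPM in vehicle replicates 1, 2 and 3 and 127, 107 and 96.9 CPM in HC-HA/PTX3 replicates 1, 2 and 3. Its log2 pair ratios were 0.31, 0.05 and 0.36, with little difference in pair 2, and the groups overlapped (fitted 0.24 ± 0.07, adjusted p = 0.0428). The genes of the structural membrane glycoproteins were abundant and did not pass in edgeR. Lamp1 stood at 154 ± 20.8 CPM per kb with vehicle (SD, n = 3). Its log2 fold change was 0.06 ± 0.06, adjusted p = 0.538, and was negative under scaling to neuron markers. Lamp2 was lower in all 3 pairs (-0.10 ± 0.06, adjusted p = 0.280), and passed with ComBat-seq followed by limma (-0.10, adjusted p = 0.0176). Cln3, a membrane protein lost in juvenile Batten disease, had the largest fitted value of the group, 0.25 ± 0.11, adjusted p = 0.163, at no more than 11.9 CPM in any culture, and passed only with ComBat-seq followed by limma (adjusted p = 0.0277).

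The 3 genes for lysosomal ion transport were higher in all 3 pairs, and none passed in edgeR with TMM, DESeq2 or limma-voom, although all 3 passed with ComBat-seq followed by limma, Mcoln1 passed with upper-quartile scaling in edgeR and 2 had an unadjusted p under 0.05 in edgeR. Mcoln1, the calcium release channel TRPML1, had the largest value at 0.22 ± 0.07, adjusted p = 0.0606. Clcn7, the chloride-proton antiporter that works with OSTM1, read 0.12 ± 0.08, adjusted p = 0.320 and was the most abundant of the 3 at 6.56 ± 0.960 CPM per kb (SD, n = 3), a level that overlapped that of Mcoln1.

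The median log2 fold change of the 3 transcription factor genes was 0.10, or -0.05, 0.22 and 0.14 without replicates 1, 2 and 3. None of them passed in edgeR, DESeq2 or limma-voom, 1 had an unadjusted p under 0.05 in edgeR, and 1, Tfe3, passed with ComBat-seq followed by limma. Tfe3 was the most abundant at 6.75 ± 0.868 CPM per kb, against 1.74 ± 0.281 for Mitf and 1.69 ± 0.541 for Tfeb (SD, n = 3 each), whose ranges overlapped. Tfe3 was measured at 57.0, 58.8 and 71.8 CPM with vehicle and 71.5, 60.7 and 81.2 CPM with HC-HA/PTX3 (0.18 ± 0.07, adjusted p = 0.108). Its log2 fold change was 0.11 without replicate 1. Tfeb was measured at 9.54, 12.6 and 6.50 CPM with vehicle and 12.6, 11.5 and 6.70 CPM with HC-HA/PTX3 (0.10 ± 0.13, adjusted p = 0.633), and its value turned negative without replicate 1. Mitf was lower in all 3 pairs (-0.14 ± 0.11, adjusted p = 0.420, or -0.07 without replicate 3). Messenger RNA does not show where these factors are in the cell, and their location was not measured here. Of 18 genes through which mTORC1 controls TFEB at the lysosome, 1 rose and none fell, beside 7.67% and 11.5% of all tested genes. In edgeR 4 had an unadjusted p under 0.05, 1 of them lower, beside 33.2%. The median was 0.04, or -0.06 under scaling to neuron markers and 0.06, 0.04 and 0.06 without replicates 1, 2 and 3. The gene that rose was Flcn, whose product folliculin activates RagC and thereby keeps TFEB and TFE3 phosphorylated, at 12.4, 16.2 and 18.2 CPM with vehicle and 20.8, 18.3 and 22.2 CPM with HC-HA/PTX3, so that the groups were next to each other without overlap (0.40 ± 0.12, adjusted p = 0.0389, or 0.24 and adjusted p = 0.254 without replicate 1).

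Beyond the 54 genes, 30 other lysosomal hydrolases had a median log2 fold change of 0.05. Of these 2 rose and 2 fell, beside 7.67% and 11.5% of all tested genes. At an unadjusted p under 0.05 in edgeR, 8 of the 30 differed, 2 of them lower, beside 33.2%. Acp2, a lysosomal acid phosphatase, was measured at 61.3, 68.1 and 64.0 CPM with vehicle and 99.8, 88.0 and 83.0 CPM with HC-HA/PTX3 and rose (0.48 ± 0.08, adjusted p = 0.00299). Arsb, a sulfatase of dermatan and chondroitin sulfate, fell (-0.49 ± 0.10, adjusted p = 0.00807), and so did Ctsc (-0.43 ± 0.11, adjusted p = 0.0247), the gene of the dipeptidyl peptidase cathepsin C. The fall of Ctsc did not pass without replicate 2 (adjusted p = 0.0863) or without replicate 3 (-0.22, adjusted p = 0.109). Ctsc also differed strongly between replicate numbers, at 223, 157 and 30.5 CPM with vehicle and 201, 126 and 16.6 CPM with HC-HA/PTX3. Of 17 other lysosomal membrane genes, 16 were tested, 4 rose, none fell (6 had an unadjusted p under 0.05, none lower), and the median was 0.08. The count of 4 became 0, 3 and 2 without replicates 1, 2 and 3, and 0 under scaling to neuron markers. The largest rise was that of the ion channel gene Tpcn2 (0.47 ± 0.14, adjusted p = 0.0375). The others were the peptide transporter gene Abcb9 (0.39 ± 0.10), the sialic acid exporter gene Slc17a5 (0.37 ± 0.08) and Lmbrd1 (0.26 ± 0.06), which takes part in cobalamin export. The remaining gene, Lamp3, had too few counts.

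Delivery of hydrolases by mannose 6-phosphate was represented by 9 genes, of which 1 rose, none fell (4 had an unadjusted p under 0.05, 1 lower), and the median was 0.09, or 0.03, 0.16 and 0.09 without replicates 1, 2 and 3. Igf2r, the large mannose 6-phosphate receptor, rose by a small amount (0.19 ± 0.06, adjusted p = 0.0469) and passed in 5 of 13 alternative analyses, but neither in DESeq2 nor when any of the 3 replicates was left out. Of 13 autophagy genes known as TFEB targets or partners, 3 rose and 2 fell, with a median of 0.14. Sqstm1, the autophagy receptor p62, was counted at 496, 558 and 876 CPM with vehicle and 724, 700.0 and 1136 CPM with HC-HA/PTX3 and rose, with the treated culture the higher of each pair (0.42 ± 0.07, adjusted p = 0.00303). Vps18 (0.31 ± 0.07, adjusted p = 0.0113) and Vps11 (0.26 ± 0.07, adjusted p = 0.0325), which encode core subunits of the tethering complexes that fuse vesicles with lysosomes, also rose. Wipi1 (-0.31 ± 0.08, adjusted p = 0.0200), a phagophore protein, and Hif1a (-0.26 ± 0.07, adjusted p = 0.0226), the hypoxia factor, fell. Of the 16 genes past the threshold in these pathway lists, 4 passed without replicate 1 (among them Acp2 and Sqstm1), 9 without replicate 2 and 11 without replicate 3, with the same direction for all 16 each time. Under scaling to neuron markers 8 passed, and the medians of the hydrolase, membrane and sorting lists were -0.05, -0.02 and -0.01. DESeq2 and limma-voom found no gene lower among the assembly, membrane, sorting and mTORC1 lists, whereas ComBat-seq followed by limma found 2, 1, 1 and 3.

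The cultures contained RNA of other cells besides neurons, and some of it moved with the treatment. The 12 neuron markers summed to 11290.0, 8679.6 and 9859.8 CPM with vehicle and 11594, 9248 and 11231 CPM with HC-HA/PTX3, in order of replicate number, with Nefl as the most abundant gene and no marker at 0. Of the 12, 1 rose (Uchl1, 0.32 ± 0.07, adjusted p = 0.00853), none fell, 4 had an unadjusted p under 0.05 and the median log2 fold change was 0.10. The 5 genes of dividing cells summed to 645, 439 and 196 CPM with vehicle and 215, 220.0 and 34.9 CPM with HC-HA/PTX3, and all 5 fell, with a median log2 fold change of -1.44 and Mki67 as the most abundant gene (-1.72 ± 0.22, adjusted p = 0.00104). The 6 fibroblast markers summed to 2138, 2152 and 895 CPM with vehicle and 1151, 1382 and 303 CPM with HC-HA/PTX3, and 3 of them fell, the collagen genes Col1a1, Col1a2 and Col3a1, of which Col3a1 was the most abundant (-0.96 ± 0.17, adjusted p = 0.00440), with a median of -0.63 for the list. The 12 macrophage markers were low, with sums of 54.6, 76.4 and 59.0 CPM with vehicle and 44.9, 67.5 and 33.6 CPM with HC-HA/PTX3. Of these, 4 fell (C1qa, C1qb, Tyrobp and Cd163), none rose, C1qb was the most abundant (-0.82 ± 0.19, adjusted p = 0.0157), and the median was -0.59.

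The 7 Schwann cell markers summed to 1399.7, 1008 and 808 CPM with vehicle and 1279.8, 912 and 793 CPM with HC-HA/PTX3, and 2 fell, among them Mbp (-0.31 ± 0.07, adjusted p = 0.0139), while the most abundant, Pmp22, did not pass (-0.08 ± 0.07, adjusted p = 0.436), and the median was -0.15. The 7 satellite glia markers summed to 1913, 1032 and 397 CPM with vehicle and 1812, 1053 and 423 CPM with HC-HA/PTX3. Fabp7 and Kcnj10 fell, Glul rose, and Apoe, the most abundant, did not pass (-0.21 ± 0.08, adjusted p = 0.0929). The median of the satellite glia list was 0.01, or -0.09 under scaling to neuron markers. The 6 endothelial markers summed to 235, 256 and 281 CPM with vehicle and 236, 284 and 257 CPM with HC-HA/PTX3, with Cdh5 the most abundant (-0.08 ± 0.07, adjusted p = 0.490), and none passed in edgeR with all 6 cultures, at an adjusted or an unadjusted p under 0.05, nor in DESeq2, limma-voom or ComBat-seq followed by limma. Their median was -0.03. The 5 osteoclast markers summed to 15.3, 11.1 and 7.70 CPM with vehicle and 16.3, 13.1 and 9.32 CPM with HC-HA/PTX3. Between 80.3% and 96.6% of this was Ctsk (0.19 ± 0.11, adjusted p = 0.259), which the list shares with the other hydrolases as it does Acp5, while Calcr never exceeded 3 counts and Ocstamp and Dcstamp had too few counts for a test. None of the other marker genes was at 0 in every culture. All 5 genes of dividing cells and 3 fibroblast markers fell without each replicate in turn. The number of macrophage markers that fell was 1, 3 and 2 without replicates 1, 2 and 3, that of Schwann cell markers 2, 1 and 2 and that of satellite glia markers 0, 0 and 2, while 3, 0 and 2 neuron markers rose. Without replicate 3, 1 endothelial and 1 macrophage marker rose. Without replicate 3 the log2 fold changes of Col3a1 and C1qb were -0.61 and -0.48, and the medians of the fibroblast, macrophage, neuron and endothelial lists were -0.40, -0.32, 0.04 and 0.07. The satellite glia median was -0.11 without replicate 2. In bulk RNA, fewer cells of a type and less RNA per cell cannot be told apart. The part of these marker differences in the rise of the V-ATPase and lysosome genes was not tested.

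In an analysis chosen after seeing the data, the libraries were scaled to the geometric mean of the 12 neuron markers in place of TMM. It moved the median log2 fold change of all tested genes to -0.10. Of all genes past an adjusted p of 0.05, 680 were then higher and 3059 lower (18.2% higher), against 1402 and 2103 with TMM (40% higher). Of the 11 genes that rose, only Atp6v1h (log2 fold change 0.25, adjusted p = 0.0307) and Ctsd (0.22, adjusted p = 0.0294) still passed, all 11 remained above 0, and 14 of the 49 genes were higher in all 3 pairs, beside 14.6% of all tested genes under this scaling, while 8 were lower, beside 39.4%. These 2 genes of the 49 compare with 3.72% of all tested genes that were higher. The medians were 0.07 for both the V-ATPase and the lysosomal genes, and those of the 9 roles lay between -0.04 and 0.17. Relative to neuron markers, 9 of the 11 rises did not pass.

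**Figure D5:**
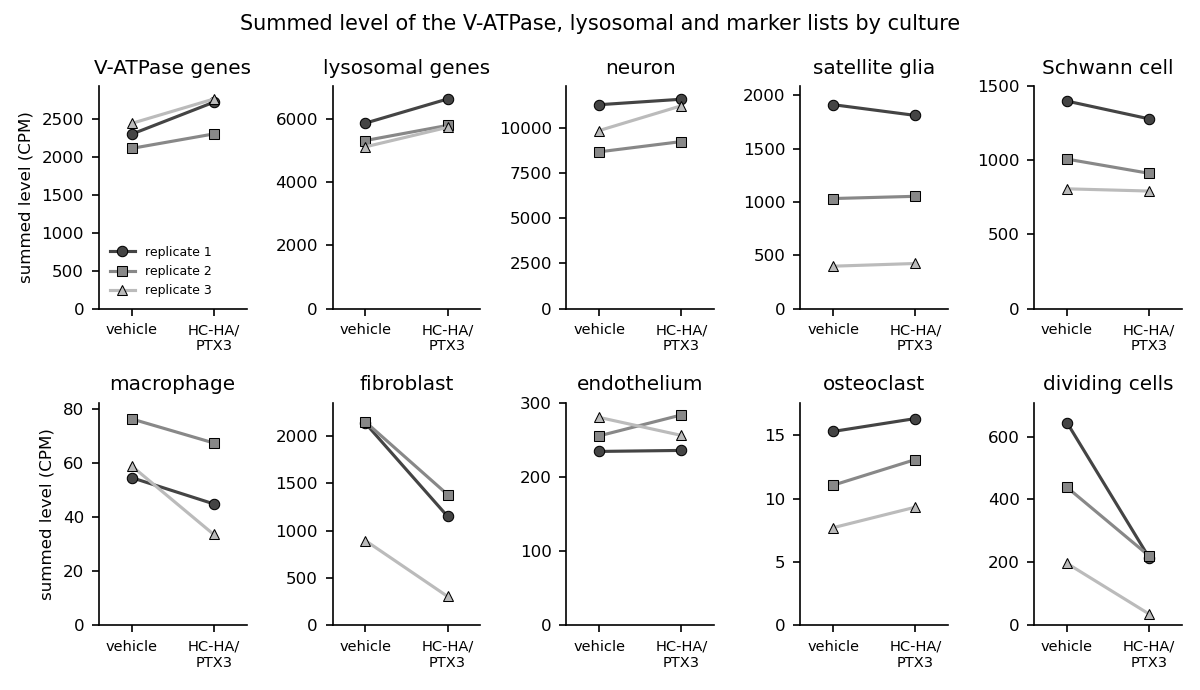
Summed levels in CPM are drawn by culture for the 25 V-ATPase genes, the 29 lysosomal genes and 8 marker lists, with lines joining same-numbered cultures. The V-ATPase, lysosomal, neuron and osteoclast sums climb in all 3 pairs. The fibroblast, macrophage, Schwann cell and dividing cell sums fall in all 3. The satellite glia sums are set apart by replicate number.

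Summed over genes, the 25 V-ATPase genes came to 2299, 2111 and 2441 CPM with vehicle and 2720.5, 2303 and 2762 CPM with HC-HA/PTX3, and the 29 lysosomal genes to 5879, 5327 and 5127 CPM with vehicle and 6644, 5807 and 5745 CPM with HC-HA/PTX3. Both sums were higher in the treated culture of each pair, and the groups overlapped. Of the 49, 28 differed between numbers (adjusted p under 0.05, edgeR's test of both number terms with the treatment in the fit), 9 of the V-ATPase and 19 lysosomal, against 33.8% of all tested genes. Without replicates 1, 2 and 3 the count was 20, 17 and 6, beside 28%, 23.1% and 12.4% of all genes tested in the same fits.

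Of the 6180 genes of the whole table that differed between numbers, 37.9%, 25.9% and 36.2% were highest in replicates 1, 2 and 3, and 22.4%, 27.4% and 50.2% were lowest there. Whether V-ATPase and lysosomal genes differ in this order was not tested. Of the 9 V-ATPase genes that differed, 6 were highest in replicate 3 and 7 were lowest in replicate 2. Atp6v1g2 was among the latter, at 0.25, -0.43 and 0.18 log2 units from its mean in replicates 1, 2 and 3, and Atp6v0d2 had the widest range of all 49, at 0.93, -0.86 and -0.08. Of the 19 lysosomal genes, 15 were lowest in replicate 3 and 13 highest in replicate 1. Ppt1 stood at 0.33, 0.05 and -0.38 log2 units from its mean, Hexa at 0.23, 0.06 and -0.29 and Tfeb at 0.20, 0.33 and -0.53. The exceptions included Gla (-0.10, -0.22 and 0.31) and Tfe3 (-0.05, -0.15 and 0.20), which were highest in replicate 3. The satellite glia sums were also highest in replicate 1 and lowest in replicate 3, at 1913 and 397 CPM in the vehicle cultures, and their part in this order was not tested. Ctsd and Neu1, both among the genes that rose, differed little between numbers, with ranges of 0.0460 and 0.0798 log2 units.

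The libraries held 42516100, 42617500 and 54117500 counts in vehicle replicates 1, 2 and 3 and 37998100, 37434300 and 38420200 counts in HC-HA/PTX3 replicates 1, 2 and 3. Every HC-HA/PTX3 library was thus smaller than every vehicle library. The least abundant of the 11 genes that rose, Gla, Neu1 and Atp6v1f, had at least 987 counts in every culture. Where genes overlap, the reads of one may have been counted for the other, since the strand setting is not given. Of the 11, only Grn, which shares 1.96% of its exon bases with Fam171a2, and Atp6v1h, which shares 1.3% with Rgs20, overlap the exons of another gene.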

How the data were processed

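The authors aligned paired-end reads of ribosomal RNA-depleted total RNA to mm10 and counted them per gene with featureCounts, and the deposited values are these raw counts. The methods name HISAT2, whereas the deposited file header names STAR, and neither versions nor the strand setting are given. Members and lists were chosen with earlier results of these data known. Genes were filtered with filterByExpr by treatment, scaled with TMM and tested with glmQLFTest in edgeR 4.0.16 (R 4.3.3), with the replicate number as a block and Benjamini-Hochberg adjustment over 18277 genes. The block follows the study's methods, which fit batch and condition, although the labels do not say that the number is the batch. Log2 deviations from the group mean correlated at 0.631, 0.536 and 0.774 between same-numbered cultures of the groups and at -0.613 to 0.148 between others, across genes, which are not independent. Since deviations from a group mean cancel within the group, the low values between others follow in part from the high ones and add no separate evidence of pairing. Pair ratios used a prior count of 2.

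Named were the genes that rose or fell, the most abundant per kb and those with the largest and smallest log2 fold change of each role, the TFEB family, subunits with tissue-restricted paralogs, up to 4 genes past the threshold in each pathway list and the most abundant of each marker list. Other genes were named after their values were seen, among them the remaining autophagy and marker genes that passed. Alternatives were no block, DESeq2 1.42.0, limma-voom (limma 3.58.1), ComBat-seq (sva 3.50.0) followed by limma, upper-quartile and RLE scaling, raw library sizes, no filter, at least 10 counts in every culture, leaving out each replicate, fold thresholds of 0 and 0.25 and, chosen after seeing the data, scaling to neuron markers. The fit was tested on simulated data. A few genes counted in the lists are not reported here by name.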

Additional observations from a re-analysis of the deposited data

How the results depend on the processing

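All 11 rises had a positive log2 fold change in every alternative. All 11 passed with limma-voom, ComBat-seq followed by limma, the other planned scalings and both filters, and 8 passed with DESeq2. Without the block 0 genes of the whole table reached the study's criterion and 0 members passed the adjusted p, with 4 members at an unadjusted p under 0.05. With ComBat-seq followed by limma 33 members passed, beside 41% of all genes tested. Leaving out each replicate in turn gave 878 to 1571 genes and 0 to 1 members at the study's criterion, 2 to 6 members past the adjusted p, 6 to 20 that differed between replicate numbers and 33 to 39 that were higher and 5 to 7 that were lower in both remaining pairs, beside 33.5% to 34.3% and 34.0% to 36.2% of all genes. At fold thresholds of 0 and 0.25, 11 and 8 members would meet the criterion. Scaling to neuron markers, chosen after seeing the data, left 2 members past the adjusted p and medians of 0.073 for the V-ATPase and 0.066 for the lysosomal genes. In all 3 pairs 14 members were then higher and 8 lower, beside 14.6% and 39.4% of all tested genes. The causes were not tested.

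Some genes that did not pass changed sign. Scaling to neuron markers gave log2 fold changes of -0.0073 for Atp6v0a2, -0.049 for Atp6v0d1, -0.056 for Atp6v1g2, -0.036 for Lamp1 and -0.057 for Nefl. Atp6v0e was at 0.0050 without the block, 0.028 with upper-quartile scaling, 0.011 with raw library sizes and 0.00038 with at least 10 counts in every culture. Tpp1 was at 0.017 with upper-quartile scaling and 0.00037 with raw library sizes. Leaving out each replicate gave -0.047 to 0.22 for Tfeb, -0.037 to 0.098 for Atp6v0d1, -0.0090 to 0.11 for Atp6v1g2, -0.21 to 0.11 for Atp6v0e, -0.040 to 0.025 for Tpp1, -0.014 to 0.081 for Nefl and -0.15 to 0.0013 for Cdh5. The causes of these changes were not tested.

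With 3 cultures a group, the adjusted p rests on the pairing of cultures by number, which the labels do not explain. DESeq2, limma-voom and the fit without the block gave no value of their own for the counts over pairs, and the latter and ComBat-seq gave none for differences between replicate numbers. The 5 untested members had too few counts for a test, and Atp6v0d2 stayed under 3 CPM.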
